A study of Homo sapiens with 12 samples.

Results

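The effect of interferon gamma (IFNγ) on gene expression was measured in irradiated HT1080 cells, an established human fibrosarcoma line, by comparing cells that received IFNγ and radiation with cells that received radiation alone. The members are the 3 combination and 3 radiation libraries, chosen by their treatment labels, which make 6 of the 12 libraries of the study. All 12160 genes with enough counts were tested, of 19293 protein-coding genes in the table of counts. Combination cells received IFNγ at 10 ng/ml and 20 Gy, and radiation cells received 20 Gy without the cytokine. The other 6 libraries are cells given IFNγ at 10 ng/ml without radiation and untreated cells, with 3 libraries each, and they enter only where stated. The labels give no genetic change in any group, and all cells were harvested at 24 h, so the data hold 1 cell line, 1 dose of each agent and 1 time. RNA was sequenced in bulk, and counts per library ran from 10254314 to 10956421 in the combination group and from 9675126 to 10084853 in the radiation group. Since the labels leave unsaid whether each replicate was its own culture, the p-values reflect variation among libraries that may be technical.

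IFNγ is the type II interferon, secreted mainly by T cells and natural killer cells. It binds the receptor chains IFNGR1 and IFNGR2, which activate the kinases JAK1 and JAK2, and the signal ends at GAS elements (gamma-activated sites) in promoters. The transcription factor IRF1, itself a target, binds ISRE elements (interferon-stimulated response elements) in a later wave of genes for antigen presentation, antiviral defence and chemokines. In tumour cells the pathway is known for making cells visible to T cells and also for inducing brakes on those T cells such as PD-L1.

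The promoters of 6 genes are printed to show where those elements lie in 5 raised genes, beside 1 lowered gene. They were picked after the matches and values had been seen, and the contrast does not hold for all named genes. The raised genes CD74 and PSMB9 have neither motif in their windows, while CD59 and TXNRD1, both lower, have windows with a match. The windows are RefSeq sequences of build GRCh38.p14, 250 bases before to 50 bases after the annotated transcription start, written 5′ to 3′ on the gene's strand. Capitals mark the letters TTCNNNGAA (GAS) or GAAANNGAAA (the core of an ISRE), searched on both strands with N for any base.
IRF1: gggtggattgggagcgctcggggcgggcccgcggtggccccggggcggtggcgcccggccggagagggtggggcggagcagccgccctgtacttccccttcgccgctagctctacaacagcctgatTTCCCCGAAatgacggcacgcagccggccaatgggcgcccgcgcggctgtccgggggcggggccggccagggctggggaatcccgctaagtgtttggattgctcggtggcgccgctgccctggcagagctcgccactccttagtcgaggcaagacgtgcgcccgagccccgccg
GBP1: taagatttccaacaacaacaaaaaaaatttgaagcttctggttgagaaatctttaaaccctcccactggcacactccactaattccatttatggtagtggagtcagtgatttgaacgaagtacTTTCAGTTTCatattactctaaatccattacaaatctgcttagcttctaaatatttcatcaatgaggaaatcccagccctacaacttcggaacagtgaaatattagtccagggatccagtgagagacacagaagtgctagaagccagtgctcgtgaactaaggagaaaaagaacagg
BST2: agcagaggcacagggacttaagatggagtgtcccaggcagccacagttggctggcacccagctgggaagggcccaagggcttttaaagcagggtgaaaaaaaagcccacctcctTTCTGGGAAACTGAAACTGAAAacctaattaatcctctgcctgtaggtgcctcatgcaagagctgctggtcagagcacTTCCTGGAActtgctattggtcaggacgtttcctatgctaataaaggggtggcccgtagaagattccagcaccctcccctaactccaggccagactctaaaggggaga
CXCL10: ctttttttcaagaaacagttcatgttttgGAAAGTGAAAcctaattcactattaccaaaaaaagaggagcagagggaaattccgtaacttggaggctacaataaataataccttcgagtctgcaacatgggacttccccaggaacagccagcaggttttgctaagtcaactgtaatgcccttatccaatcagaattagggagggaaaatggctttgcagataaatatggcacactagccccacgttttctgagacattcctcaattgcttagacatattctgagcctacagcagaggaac
CD274: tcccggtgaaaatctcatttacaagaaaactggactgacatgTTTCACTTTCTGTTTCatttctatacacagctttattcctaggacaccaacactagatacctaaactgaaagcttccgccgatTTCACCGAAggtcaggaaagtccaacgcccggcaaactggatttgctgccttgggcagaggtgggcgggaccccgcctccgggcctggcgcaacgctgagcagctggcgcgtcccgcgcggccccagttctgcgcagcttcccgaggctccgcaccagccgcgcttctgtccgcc
HHIP: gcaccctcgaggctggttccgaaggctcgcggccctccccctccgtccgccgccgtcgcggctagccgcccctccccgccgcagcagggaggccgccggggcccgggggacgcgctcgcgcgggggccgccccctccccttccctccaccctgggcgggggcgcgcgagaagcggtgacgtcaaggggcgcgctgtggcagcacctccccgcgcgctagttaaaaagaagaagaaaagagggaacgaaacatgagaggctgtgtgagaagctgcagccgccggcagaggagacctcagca
The IRF1 window (chr5:132490724-132491023, minus strand) holds 1 GAS match that begins 124 bases before the start. The GBP1 window (chr1:89065159-89065458, minus strand) holds 1 ISRE core 127 bases before the start, and the CXCL10 window (chr4:76023448-76023747, minus strand) holds 1 at 221 bases. BST2 (chr19:17405581-17405880, minus strand) has 2 GAS matches, at 136 and 58 bases, and 2 ISRE cores, at 130 and 124 bases. The cores overlap each other, and only the core at 130 bases overlaps the upstream GAS match. CD274 (chr9:5450292-5450591, plus strand) has 1 GAS match at 125 bases and 2 overlapping ISRE cores at 208 and 202 bases. HHIP (chr4:144645906-144646205, plus strand), the gene of the printed set that was lower in combination cells, has neither motif in its window. Among all 35116 promoter windows of the RefSeq table, 7.66% hold the GAS letters and 3.57% the ISRE core. Only 73.6% of the genes at least 2-fold higher had a window, so no share over the responding genes is compared. A match is a description of the letters and not evidence of binding.

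Some libraries stood apart within their group. Radiation 2 held counts of genes that the other radiation libraries barely show: HBB, a globin, had 30.5 CPM (counts scaled to a common library total of 1e+06) there, against 1.01 and 0.680 CPM in radiation 1 and 3. DLK1 had 16.2 CPM there against 0.403 and 0.292 CPM, and IGF2 had 17.8 CPM against 0.907 and 1.65 CPM. The same library had 23 counts of PTPRC, the pan-leukocyte surface protein CD45, against 2 and 1 in radiation 1 and 3. None of HBB, DLK1 and IGF2 was called. Over 13 interferon-inducible genes that are nearly silent without IFNγ, chosen after their values were seen, it held 243 counts, which is 1.38% of the mean combination level, against 62 (0.353%) in radiation 1 and 48 (0.264%) in radiation 3. Results that rest on radiation 2 are therefore given with and without it. Combination 3 had the highest level of its group for 245 of the 299 most strongly raised genes (81.9%), with a median of 1.10 times the group mean. Radiation 2 was highest of its group for 144 of the 299 (48.2%), with a median of 1.03 times the group mean. Markers of the labelled cell type were present, though passing the filter does not by itself establish a cell type. VIM had 46938, 47449 and 48283 counts in the combination libraries and 41747, 41547 and 43681 in the radiation libraries, and 13 of 14 mesenchymal markers passed the filter. The epithelial marker EPCAM had 1, 0 and 0 counts in combination and 0 in each radiation library, while the keratins KRT8 and KRT18 were abundant. Of 16 epithelial and endothelial markers 5 passed the filter. They took 0.0616 to 0.0634% of the counts in combination libraries and 0.0466 to 0.0482% in radiation libraries. Of 17 immune cell markers 2 passed the filter. Those 2 took 0.0185 to 0.0196% of the counts in combination libraries and 0.0169 to 0.0174% in radiation libraries, nearly all of it CD68. Markers that failed the filter are not in these shares.

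IFNγ added a strong and one-sided response to irradiated cells: large changes were mostly increases, while calls under 1.2-fold were split evenly. In edgeR's quasi-likelihood test with Benjamini-Hochberg adjustment, 1761 genes (14.5% of those tested) were called higher and 1509 (12.4%) lower in combination than in radiation cells at an adjusted p under 0.05, together 26.9%. At least 2-fold changes were 299 genes higher (2.46%) and 42 lower (0.345%). At 8-fold or more there were 91 genes higher and 0 lower. Among calls under 1.2-fold, 760 were higher and 761 lower. Combination and radiation libraries did not overlap for 4896 genes (40.3%). The 299 raised genes took 2.81, 2.88 and 3.22% of all counts in the combination libraries, against 0.583, 0.598 and 0.576% in the radiation libraries. The balance of small changes depended on the scaling. With library totals in place of trimmed-mean (TMM) scaling, 1398 genes were called higher and 2278 lower, so the share of calls that were higher was 38.0% against 53.9%. Without radiation 2 the calls were 1518 higher and 1259 lower (311 and 36 at 2-fold or more), and without combination 3 they were 1500 higher and 1169 lower. The data are from bulk RNA, so a change in the number of cells that express a gene and a change in its RNA per cell cannot be told apart.

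**Figure D1:**
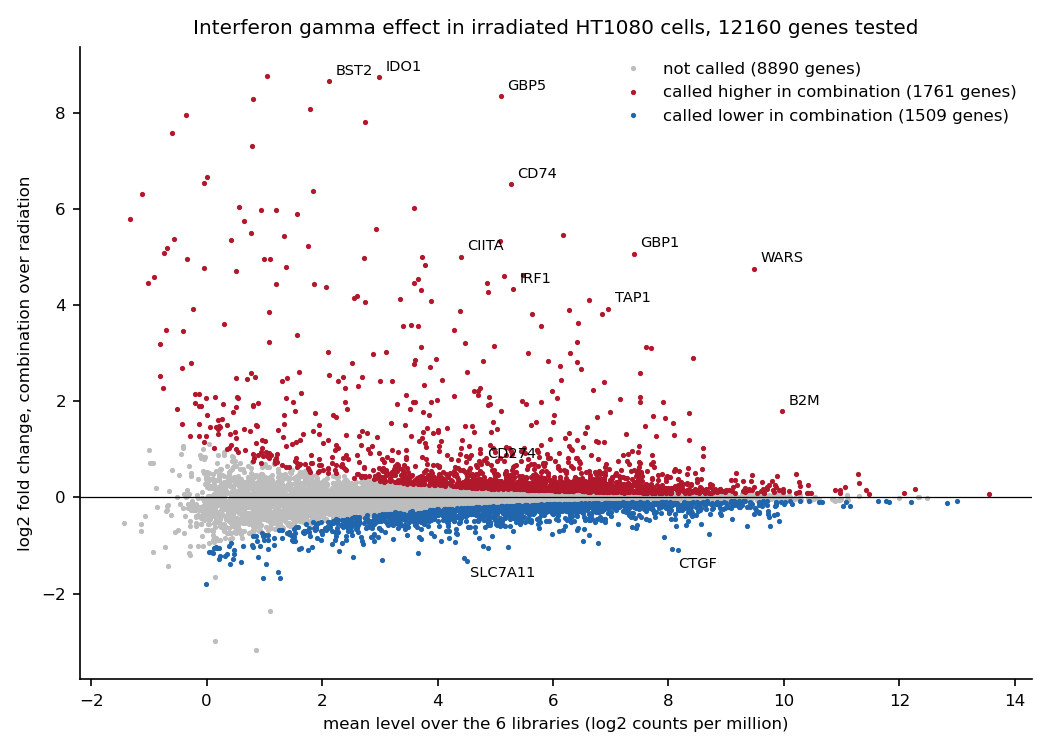
Log2 fold change of combination over radiation (vertical axis) against the mean level over the 6 libraries in log2 CPM (horizontal axis), 1 point per gene tested. Of the 3270 called genes, those past 2-fold are 299 above and 42 below the zero line, and the tall upper tail reaches IDO1, BST2 and GBP5.

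Most transcription factors of the pathway rose, while the receptor chains did not pass the test. Of 16 tested genes of the receptor and its signalling, 10 were higher and 2 lower, with a median log2 fold change of 0.71 against -0.01 over all genes tested. IRF1 had 167, 165 and 200 CPM in combination cells, against 8.87, 10.1 and 7.29 CPM in radiation cells. The groups did not overlap, and the log2 fold change was 4.34 ± 0.22 (SE, edgeR adjusted p = 4.0e-08). STAT2 and IRF9, subunits of the complex that binds ISREs, rose by log2 fold changes of 2.24 ± 0.06 and 2.13 ± 0.09. BATF2, a transcription factor of the AP-1 family, rose by 4.84 ± 0.25. JAK2 was 32.9, 33.7 and 43.5 CPM in combination cells, against 22.4, 23.9 and 18.0 CPM in radiation cells (log2 fold change 0.78 ± 0.12), with combination 3 highest. IFNGR1 (log2 fold change 0.11 ± 0.07, edgeR adjusted p = 0.26) and IFNGR2 (-0.11 ± 0.06, edgeR adjusted p = 0.22) were not called. JAK1 was called lower by -0.10 ± 0.04 (edgeR adjusted p = 0.031), a call lost when any 1 of the 6 libraries was left out (adjusted p from 0.054 to 0.11). IRF7, another transcription factor of the list, had 1.37, 1.13 and 1.10 CPM in combination cells and 1.01, 1.71 and 1.17 CPM in radiation cells, which overlap, and was not called. The list's count of lower genes is 1 without radiation 2 and 1 in DESeq2.

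Among 11 tested feedback inhibitors, 3 were higher and 3 lower, with a median of -0.02. USP18, which restrains type I interferon signalling, rose by a log2 fold change of 2.51 ± 0.21. SOCS1, the inhibitor of JAK kinases, had 1.77, 2.65 and 2.57 CPM in combination cells, against 0.806, 0.402 and 0.680 CPM in radiation cells (1.87 ± 0.42, edgeR adjusted p = 8.2e-05). SOCS3 rose by 0.67 ± 0.08. SOCS2, better known from growth hormone signalling, fell by 1.05 on the log2 scale (SE 0.24).

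Antigen presentation through MHC class I was raised at nearly every step, from peptide production to the surface complex. Of 17 tested genes of the class I complex and its peptide loading, 16 were higher and 0 lower, with a median log2 fold change of 1.99, against 14.5% of all genes called higher. B2M, the invariant light chain, had 1844, 1865 and 1900 CPM in combination cells, against 538, 550 and 527 CPM in radiation cells. These levels did not overlap, and the log2 fold change was 1.80 ± 0.03 (edgeR adjusted p = 1.1e-48). TAP1, a subunit of the peptide transporter, had 453, 467 and 532 CPM in combination cells and 32.2, 32.8 and 30.7 CPM in radiation cells (3.92 ± 0.13). Among the heavy chains, HLA-B changed by 4.10 ± 0.12 and HLA-E by 3.11 ± 0.05. HLA genes have near-identical stretches, so the split of reads among them is uncertain. NLRC5, the transactivator of class I genes, rose by 3.01 ± 0.08. CANX, a general chaperone of the endoplasmic reticulum, was the member that was not called.

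In the proteasome that cuts peptides for class I, the interferon-inducible subunits rose most, and some constitutive subunits rose by less. Of 12 tested proteasome genes, 8 were higher and 0 lower, with a median of 0.57. PSMB9, an interferon-inducible catalytic subunit, had 129, 132 and 139 CPM in combination cells, against 5.85, 6.33 and 6.03 CPM in radiation cells (log2 fold change 4.46 ± 0.11, edgeR adjusted p = 1.1e-47). The other inducible catalytic subunits, PSMB10 and PSMB8, rose by 2.83 ± 0.10 and 2.45 ± 0.06, and the activator subunits PSME1 and PSME2 by 1.77 and 2.05. Of the constitutive alpha-ring subunits, PSMA3 rose by 0.60 ± 0.04, PSMA4 by 0.55 ± 0.04 and PSMA6 by 0.44 ± 0.04. PSMB5, a constitutive catalytic subunit, had 133, 126 and 136 CPM in combination cells and 121, 132 and 131 CPM in radiation cells, levels that overlap (0.04 ± 0.05). Neither PSMB6 nor PSMB7, the other constitutive catalytic subunits, was called.

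MHC class II, which most non-immune cells keep silent, was switched to readable levels. Of 18 tested class II genes, 15 were higher and 0 lower (14 higher without radiation 2), with a median log2 fold change of 4.38. CIITA, the master regulator of class II, had 110, 112 and 132 CPM in combination cells, against 3.43, 4.42 and 3.11 CPM in radiation cells (5.01 ± 0.18, edgeR adjusted p = 2.2e-24). CD74, the invariant chain, had 374, 407 and 472 CPM in combination cells, against 1.81, 9.84 and 2.04 CPM in radiation cells, where radiation 2 was highest. Its log2 fold change was 6.52 ± 0.50 with all libraries and 7.75 without radiation 2. HLA-DRA, the alpha chain of HLA-DR, had 100, 101 and 114 CPM in combination cells and 0.806, 3.62 and 0.486 CPM in radiation cells, so radiation 2 again stood out (6.01 ± 0.49, and 7.33 without it). HLA-DRB1 had 29.3, 26.5 and 29.9 CPM in combination cells against 0, 0.603 and 0.389 CPM in radiation cells (6.38, and 7.09 without radiation 2). CTSS, the protease that trims the invariant chain, and IFI30, a lysosomal thiol reductase, rose by 4.97 and 4.46. The members not called were HLA-DOB and the constitutive subunits of the promoter-binding complex, RFXAP and RFXANK.

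The guanylate-binding proteins, GTPases that attack pathogen vacuoles, were among the genes with the largest responses. All 11 tested members of the GBP and APOL families were higher, with a median log2 fold change of 5.07. GBP1 had 901, 958 and 1084 CPM in combination cells, against 29.6, 32.7 and 25.4 CPM in radiation cells (5.07 ± 0.15, edgeR adjusted p = 2.1e-09). GBP2 rose by 5.45 ± 0.10, from the same chromosomal cluster. GBP5 had 673, 726 and 947 CPM in combination cells and 1.01, 5.92 and 0.292 CPM in radiation cells. Its fold depended on radiation 2, being 8.35 ± 0.93 on the log2 scale with it and 10.22 without it. GBP4 had 79.6, 84.8 and 108 CPM in combination cells, against 0.504, 0.703 and 0 CPM in radiation cells (7.80 ± 1.14, 8.46 without radiation 2 and 7.21 without radiation 3). Among the apolipoproteins L, APOL3 and APOL6 rose by 4.54 ± 0.17 and 3.91 ± 0.13.

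Of 38 antiviral restriction genes, 36 were higher and 0 lower, with a median log2 fold change of 2.80. BST2, which tethers budding virions, had 55.3, 53.8 and 66.3 CPM in combination cells, against 0.101, 0.201 and 0.0972 CPM in radiation cells (8.66 ± 0.86, edgeR adjusted p = 1.0e-25). MX1, a dynamin-like antiviral GTPase, had 53.2, 56.1 and 85.0 CPM in combination cells and 7.26, 5.42 and 4.76 CPM in radiation cells, with combination 3 highest (3.48 ± 0.37). ISG15, the ubiquitin-like modifier, and UBE2L6, its conjugating enzyme, rose by 2.77 ± 0.22 and 3.22 ± 0.06. The members that were not called were TRIM5 and HERC5. Radiation cells had few counts of several of these genes: RSAD2 had 29, 27 and 40 counts in combination libraries and 1 in each radiation library, a ratio of 30.5 scaled by library totals (exact 95% interval 10.1 to 150). IFI44L had 113, 112 and 221 counts in combination libraries against 0, 1 and 0 in radiation libraries (ratio 425, interval 75.9 to 16817). Such intervals cover counting error only.

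Sensors of foreign nucleic acid rose while their shared adaptors did not pass the test. Of 15 tested sensing genes, 12 were higher and 0 lower (median 1.27). AIM2, a sensor of cytosolic DNA, had 58.4, 58.1 and 62.1 CPM in combination cells, against 3.43, 3.82 and 3.21 CPM in radiation cells (4.09 ± 0.15). The RNA sensors IFIH1 and TLR3 rose by 2.88 ± 0.18 and 2.44 ± 0.12. MAVS (-0.01 ± 0.04) and TMEM173, the adaptor STING (0.02 ± 0.05), had overlapping groups. In the list of PARP9-related and nuclear body genes, 9 of 10 were higher (median 1.88). PARP9 and its partner ligase DTX3L rose by 3.81 ± 0.07 and 2.59 ± 0.04, and PARP14 by 3.12 ± 0.07.

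Raised genes lay next to each other more than once. By RefSeq gene order, 297 of the 299 genes could be placed, and 52 of these (17.5%) lay in 14 runs of at least 3 adjacent tested genes that were all at least 2-fold higher. The longest runs had 6 genes each: GBP3, GBP1, GBP2, GBP4, GBP5 and GBP6 in 1 run, and TAP2, PSMB8, TAP1, PSMB9, HLA-DMB and HLA-DMA in the other. Shorter runs held the chemokines CXCL9, CXCL10 and CXCL11, the ligase pair PARP9 and DTX3L with PARP14, and CASP4, CASP1 and CARD16. No comparison with chance was made.

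**Figure D2:**
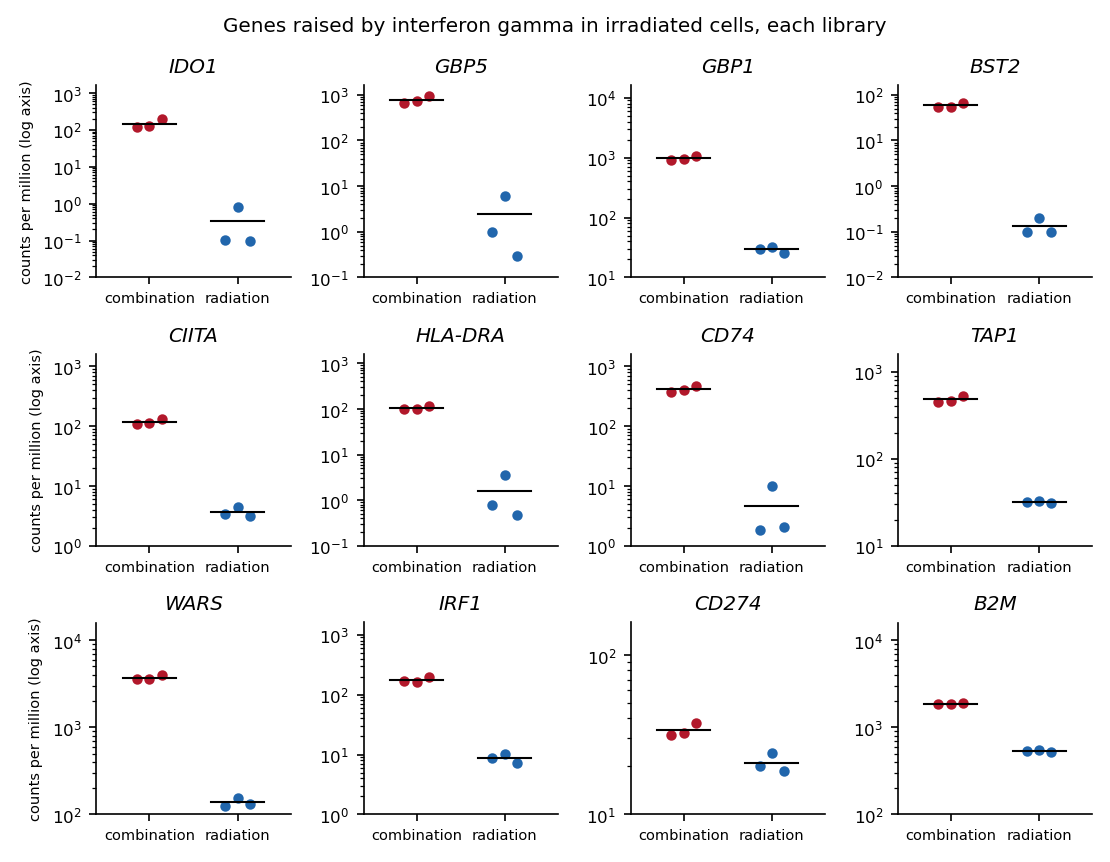
Level of 12 raised genes in each library, in CPM on a log axis whose range differs between panels, with combination libraries (red) left of radiation libraries (blue), replicates 1 to 3 from left to right and a black line at the mean. In each panel all 3 combination points lie above all 3 radiation points. Radiation 2 lies above radiation 1 and 3 in all 12 panels, and by the widest margins on the log axis for IDO1, GBP5, HLA-DRA and CD74.

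In the list of tryptophan and metabolite enzymes, IDO1 and WARS, which use tryptophan, changed most. IDO1, which degrades tryptophan and restrains T cells, had 120, 125 and 196 CPM in combination cells, against 0.101, 0.803 and 0.0972 CPM in radiation cells. The groups were far apart, but the size of the change was poorly fixed: 8 of the 10 radiation counts came from radiation 2, and the log2 fold change was 8.75 ± 2.77 with it (edgeR adjusted p = 0.00024) and 10.38 without it. WARS, the tryptophanyl-tRNA synthetase, had 3590, 3627 and 3949 CPM in combination cells and 127, 155 and 132 CPM in radiation cells (4.76 ± 0.08, edgeR adjusted p = 1.8e-10). GCH1, which makes the first intermediate of tetrahydrobiopterin, rose by 2.13 ± 0.14. These are the 3 higher genes of the 4 of the list that could be tested, and the fourth, the amino acid transporter subunit SLC7A5, was not called.

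Complement genes rose almost throughout, activating proteases and inhibitors alike. Of 13 tested, 12 were higher and 1 lower, with a median of 3.85. C1R, a protease of the first component, had 204, 210 and 228 CPM in combination cells, against 6.75, 5.02 and 4.08 CPM in radiation cells (5.34 ± 0.14). C1S, its partner protease, had 212, 218 and 234 CPM in combination cells and 9.58, 9.74 and 7.48 CPM in radiation cells (4.63 ± 0.10), so neither gene overlapped between the groups. Factor B (CFB) rose by 3.85 ± 0.40. C4A and C4B are near-identical copies whose reads cannot be assigned with certainty, and both were called higher. SERPING1, the C1 inhibitor, had 31, 43 and 72 counts in combination libraries against 0, 1 and 0 in radiation libraries (ratio 139, exact 95% interval 24.6 to 5530). CD59, which blocks the membrane attack complex, was the member that fell, by 0.15 on the log2 scale (SE 0.03).

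The T-cell-attracting chemokines appeared from near silence while a neutrophil chemokine fell. Of 6 chemokines tested, 4 were higher and 1 lower. CXCL9 had 143, 209 and 274 counts in combination libraries against 0, 1 and 0 in radiation libraries (ratio 596, exact 95% interval 107 to 23589). CXCL11 had 32, 39 and 62 counts against 0, 0 and 1 (ratio 127, interval 22.4 to 5041). CXCL10 had 19, 13 and 41 counts in combination libraries and 0 in each radiation library, at least 23.2-fold higher when the radiation libraries together are set to 3 counts. These 3 chemokines share the receptor CXCR3 on activated T cells. CXCL8, which attracts neutrophils, had 12.8, 14.3 and 9.64 CPM in combination cells and 22.6, 21.8 and 23.8 CPM in radiation cells, without overlap (log2 fold change -0.90 ± 0.12, edgeR adjusted p = 4.8e-07). CCL2, a monocyte chemokine, had 5, 2 and 3 counts against 0, 0 and 2 and was not tested.

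Secreted cytokines moved in both directions: of 15 tested, 9 were higher and 4 lower (median 0.19). TNFSF13B, the B cell survival factor BAFF, rose by 4.07 ± 0.25, and IL15, which sustains natural killer cells and memory T cells, by 2.31 ± 0.18. CSF1, the macrophage growth factor, had 307, 305 and 363 CPM in combination cells and 118, 114 and 116 CPM in radiation cells (1.49 ± 0.09). IL6 rose by 0.84 ± 0.19. IL1A, an alarmin, had 4.02, 2.93 and 2.76 CPM in combination cells and 7.36, 6.63 and 6.90 CPM in radiation cells, and fell by 1.11 on the log2 scale (SE 0.18). The gene of IFNβ, IFNB1, had 1, 0 and 0 counts in combination libraries and 0 in each radiation library, so it was not detectable at this depth. Among 16 tested cytokine receptors and binding proteins, 7 were higher and 0 lower (1 lower without radiation 2). IL15RA, which presents IL15, rose by 2.86 ± 0.14, and IL18BP, a decoy for IL18, by 3.88 ± 0.34.

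On the cell surface, most tested genes for contact with T cells rose, among them ligands that restrain T cells. Of 15 tested checkpoint and T cell contact genes, 12 were higher and 1 lower (median 0.69). CD274, which encodes PD-L1, had 31.7, 32.6 and 37.7 CPM in combination cells, against 20.3, 24.2 and 18.9 CPM in radiation cells. The groups did not overlap, and the log2 fold change of 0.69 ± 0.09 (edgeR adjusted p = 4.1e-09) was small beside those of the antigen presentation genes. PDCD1LG2, which encodes PD-L2, had 24.3, 26.5 and 26.8 CPM in combination cells and 6.25, 8.23 and 9.23 CPM in radiation cells (1.71 ± 0.11). LGALS9, a galectin that binds the receptor TIM-3 on T cells, rose by 5.23 ± 0.41. CD276, the ligand B7-H3, was the lower member, with 88.3, 81.2 and 93.6 CPM in combination cells and 100.4, 98.9 and 97.5 CPM in radiation cells. Its log2 fold change was -0.17 ± 0.05 (edgeR adjusted p = 0.0039), and without combination 2 the call was lost (-0.12, adjusted p = 0.090). VSIR, which encodes the inhibitory ligand VISTA, was not called, and its groups overlapped. The butyrophilins BTN3A1, BTN3A2 and BTN3A3, which are seen by gamma delta T cells, rose by 1.93, 1.72 and 2.29. Of 5 tested ligands of NKG2D, a receptor of natural killer cells, 0 were higher and 2 lower (40%, against 12.4% of all genes tested). The lower count was 1 without radiation 2 and 0 in DESeq2. Adhesion genes were split, with 4 higher and 4 lower of 11 (36.4% each), against 14.5% and 12.4% of all genes tested. ICAM1, the ligand of the integrin LFA-1, had 43.4, 45.1 and 59.7 CPM in combination cells and 1.11, 1.31 and 0.680 CPM in radiation cells (5.57 ± 0.66). NCAM1 fell by 0.56 (SE 0.06), and VCAM1 had at most 1 count in any of the 6 libraries.

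Several caspases and pore-forming effectors of cell death were raised, while death receptor and ligand genes had a median change near that of all genes. Of 17 tested caspases and lytic effectors, 10 were higher and 0 lower (median 0.81). CASP1, the inflammasome caspase, had 53.9, 54.2 and 58.5 CPM in combination cells, against 9.48, 8.33 and 9.33 CPM in radiation cells (2.62 ± 0.10, edgeR adjusted p = 2.0e-33). Gasdermin D (GSDMD), the pore-forming target of that caspase, rose by 1.37 ± 0.08, and MLKL, the pore former of necroptosis, by 0.98 ± 0.06. CASP8, the initiator caspase of death receptors, rose by 0.68 ± 0.07. CASP9, the initiator of the mitochondrial pathway, was not called (0.03 ± 0.17). Of 12 death receptor and ligand genes, 4 were higher and 1 lower (3 and 2 with library totals), with a median of 0.03. These are 33.3% higher and 8.33% lower, against 14.5% and 12.4% of all genes tested. TNFSF10, which encodes TRAIL, had 7.06, 7.37 and 9.64 CPM in combination cells and 0.202, 0.201 and 0.0972 CPM in radiation cells (5.50 ± 0.66). Its receptor gene TNFRSF10B fell by 0.19 (SE 0.03), and FAS had overlapping groups (-0.01 ± 0.05). In the BCL2 family, 6 of 16 were higher and 1 lower: PMAIP1, the pro-apoptotic protein NOXA, rose by 1.19 ± 0.05, BAK1 by 0.52 ± 0.08 and the anti-apoptotic BCL2A1 by 1.29 ± 0.16, while BCL2 fell by 0.49 (SE 0.13).

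The cystine importer was among the genes lowered most. SLC7A11, the transport subunit of system xc-, which brings in cystine for glutathione synthesis, had 12.5, 15.1 and 14.6 CPM in combination cells, against 31.3, 35.2 and 34.3 CPM in radiation cells. The libraries did not overlap, and the log2 fold change was -1.26 ± 0.10 (edgeR adjusted p = 1.3e-13), or -1.22 without radiation 2. Its heavy-chain partner SLC3A2 averaged 54.1 ± 1.12 CPM in combination cells and 62.2 ± 2.68 CPM in radiation cells (SD, n = 3 each), with a log2 fold change of -0.20 ± 0.05. Over 16 tested genes of cystine import and glutathione, 3 were higher and 3 lower, with a median of -0.02 against -0.01 over all genes. The higher ones were GCLM, a subunit of the rate-limiting enzyme of glutathione synthesis (0.32 ± 0.05), GSTO1 and GSR. CHAC1, which degrades glutathione, had 0.687, 0.850 and 0.459 CPM in combination cells and 1.01, 0.301 and 0.583 CPM in radiation cells, which overlap (0.07 ± 0.46).

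Among 16 tested ferroptosis genes, 5 were higher and 3 lower (median 0.06). GPX4, the peroxidase that repairs lipid peroxides, had 78.6, 70.9 and 74.5 CPM in combination cells and 85.9, 88.5 and 85.2 CPM in radiation cells (-0.21 ± 0.05, edgeR adjusted p = 0.00049). ACSL4, which loads polyunsaturated fatty acids into lipids, had 168, 182 and 170 CPM in combination cells and 169, 182 and 173 CPM in radiation cells, and was not called. LPCAT3, which acts after ACSL4, rose by 0.48 ± 0.13. In iron handling 2 of 15 genes were higher (13.3%) and 5 lower (33.3%), with 4 lower without radiation 2. Over all genes tested, 14.5% were higher and 12.4% lower. HMOX1, haem oxygenase, had 20.0, 19.1 and 18.4 CPM in combination cells and 39.0, 39.4 and 38.0 CPM in radiation cells (-1.02 ± 0.08). TFRC, the transferrin receptor, fell by 0.26 (SE 0.03). Of 19 NRF2 targets 5 were higher and 3 lower (4 and 2 without radiation 2, 4 and 5 with library totals, 4 and 1 in DESeq2), with SOD2, a mitochondrial dismutase that is also an interferon target, rising by 1.18 ± 0.08 and TXNRD1 falling by 0.35 (SE 0.03). Of 26 ATF4 and amino acid response genes 5 were higher (19.2%) and 6 lower (23.1%), or 5 and 5 without radiation 2. ATF3 rose by 1.45 ± 0.10, while ATF4 itself was not called (-0.07 ± 0.04), except lower with library totals.

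Extracellular matrix genes fell together, by modest amounts. Of 26 tested matrix genes and TGFβ targets, 2 were higher and 19 lower (17 lower without radiation 2), with a median log2 fold change of -0.32, against 12.4% of all genes called lower. CTGF, a secreted matricellular protein, had 190, 192 and 169 CPM in combination cells, against 391, 381 and 392 CPM in radiation cells (-1.08 ± 0.04, edgeR adjusted p = 3.2e-19). SPARC, another matricellular protein, had 815, 812 and 798 CPM in combination cells and 1180, 1112 and 1137 CPM in radiation cells (-0.50 ± 0.03). COL1A1 fell by 0.76 (SE 0.15) and THBS1 by 0.58 (SE 0.03). FN1, fibronectin, fell by 0.17. TNC, tenascin C, went the other way, with 139, 144 and 164 CPM in combination cells and 64.6, 56.0 and 56.3 CPM in radiation cells (1.34 ± 0.08), and COL6A2 rose by 0.20. Of 13 tested mesenchymal markers, which share members with this list, 2 were higher and 6 lower. Proteases and their inhibitors were mixed, with 9 higher and 4 lower of 18: the lysosomal protease CTSO rose by 1.77 ± 0.11 and the urokinase PLAU fell by 0.41 (SE 0.03).

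Other genes lowered by at least 2-fold came from several pathways. PDE5A, which degrades cyclic GMP, had 15.6, 14.2 and 13.3 CPM in combination cells, against 37.6, 34.2 and 35.6 CPM in radiation cells (-1.32 ± 0.08, edgeR adjusted p = 2.0e-20), the largest fall among genes with a mean of at least 2 on the log2 CPM scale and no overlap between the groups. LONRF2 (-1.29), ZNF469 (-1.24), MTURN (-1.15), ANOS1 (-1.05) and RFLNB (-1.04) were the others of the 10 named by that rule besides SLC7A11, IL1A, HHIP and CTGF. HHIP, which binds and blocks Hedgehog ligands, had 208, 206 and 175 CPM in combination cells and 414, 420 and 417 CPM in radiation cells (-1.09 ± 0.09). Of 18 tested Hedgehog, WNT and Notch genes 4 were higher (3 without radiation 2) and 5 lower, with WNT5A and the Hedgehog transducer SMO falling by 0.63 (SE 0.05) and 0.50 (SE 0.11). Of 22 growth factor and receptor kinase genes 3 were higher and 8 lower: VEGFC, a lymphatic growth factor, had 244, 243 and 253 CPM in combination cells and 126, 125 and 134 CPM in radiation cells (0.94 ± 0.04), and the EGF family ligands NRG1 and HBEGF fell by 0.69 (SE 0.05) and 0.46 (SE 0.05).

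**Figure D3:**
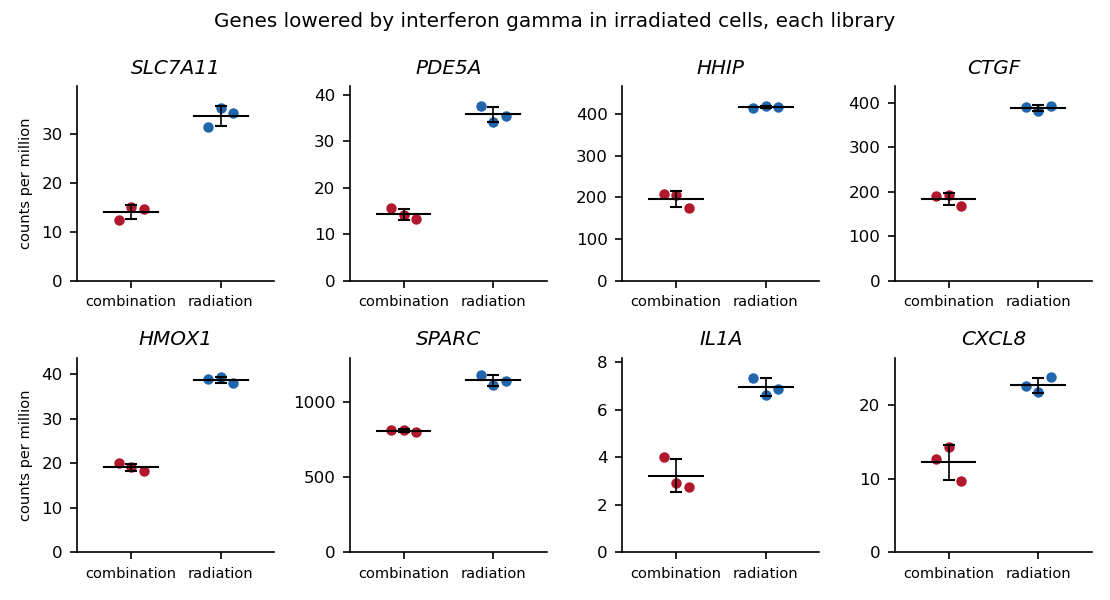
Level of 8 lowered genes in each library, in CPM from 0, with combination libraries (red) left of radiation libraries (blue), replicates 1 to 3 from left to right, a line at the mean and bars of 1 SD. All 3 combination points lie below all 3 radiation points in each panel, for SLC7A11 at 12.5 to 15.1 against 31.3 to 35.2.

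Targets of p53, the factor activated by DNA damage, were moved little. Of 35 tested p53 targets, 4 were higher (11.4%) and 6 lower (17.1%), with a median of -0.01. The counts were 1 and 8 with library totals, and 2 and 6 in DESeq2. Over all genes tested, 14.5% were higher and 12.4% lower. CDKN1A, the cell cycle inhibitor p21, had 578, 594 and 592 CPM in combination cells, against 619, 602 and 615 CPM in radiation cells (-0.06 ± 0.03, edgeR adjusted p = 0.18), and it was called lower with library totals. GDF15 had 486, 494 and 534 CPM in combination cells and 450, 433 and 457 CPM in radiation cells (0.18 ± 0.03). Of 33 break repair genes 4 were higher (12.1%) and 1 lower (3.03%), or 5 and 1 without radiation 2. NBN, a subunit of the complex that binds broken ends, rose by 0.47 ± 0.04. Among cell cycle genes, more were called slightly higher than lower. Of 34 mitosis genes 21 were higher and 0 lower, with a median of 0.13, but 16 were called without radiation 2 and 12 with library totals. TOP2A, a topoisomerase of dividing cells, had 1021, 994 and 1013 CPM in combination cells and 858, 851 and 891 CPM in radiation cells (0.22 ± 0.03). Of 40 replication genes 13 were higher and 2 lower (11 and 1 without radiation 2, 9 and 4 with library totals), led by PCNA, the sliding clamp, with 420, 417 and 415 CPM in combination cells and 297, 286 and 298 CPM in radiation cells (0.51 ± 0.03).

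Housekeeping groups changed little in median, though some were called more often than all genes tested. Of 37 ribosomal protein genes 0 were higher and 7 lower (6 without radiation 2, 13 with library totals), with a median of -0.02. The lower ones are 18.9%, against 12.4% of all genes tested. The 16 reference genes had 6 higher and 2 lower (1 lower without radiation 2), with a median of 0.04 and PGK1 reaching 0.44 ± 0.03. These are 37.5% higher and 12.5% lower, against 14.5% and 12.4% of all genes tested. Of 8 mitochondrially encoded genes 1 was higher and 2 lower (0 and 2 without radiation 2). Targets and subunits of NFκB had a median of 0.03, with 4 higher (22.2%) and 2 lower (11.1%) of 18 (4 and 1 without radiation 2). NFKBIA had overlapping groups (0.01 ± 0.10). Of 25 cholesterol and fatty acid synthesis genes 5 were higher and 3 lower (3 and 7 with library totals). Of the markers of other cell types, KRT8 rose by 0.62 ± 0.03, KRT18 by 0.29 ± 0.04 and CD68 by 0.20 ± 0.04, which are the called members of those lists.

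**Figure D4:**
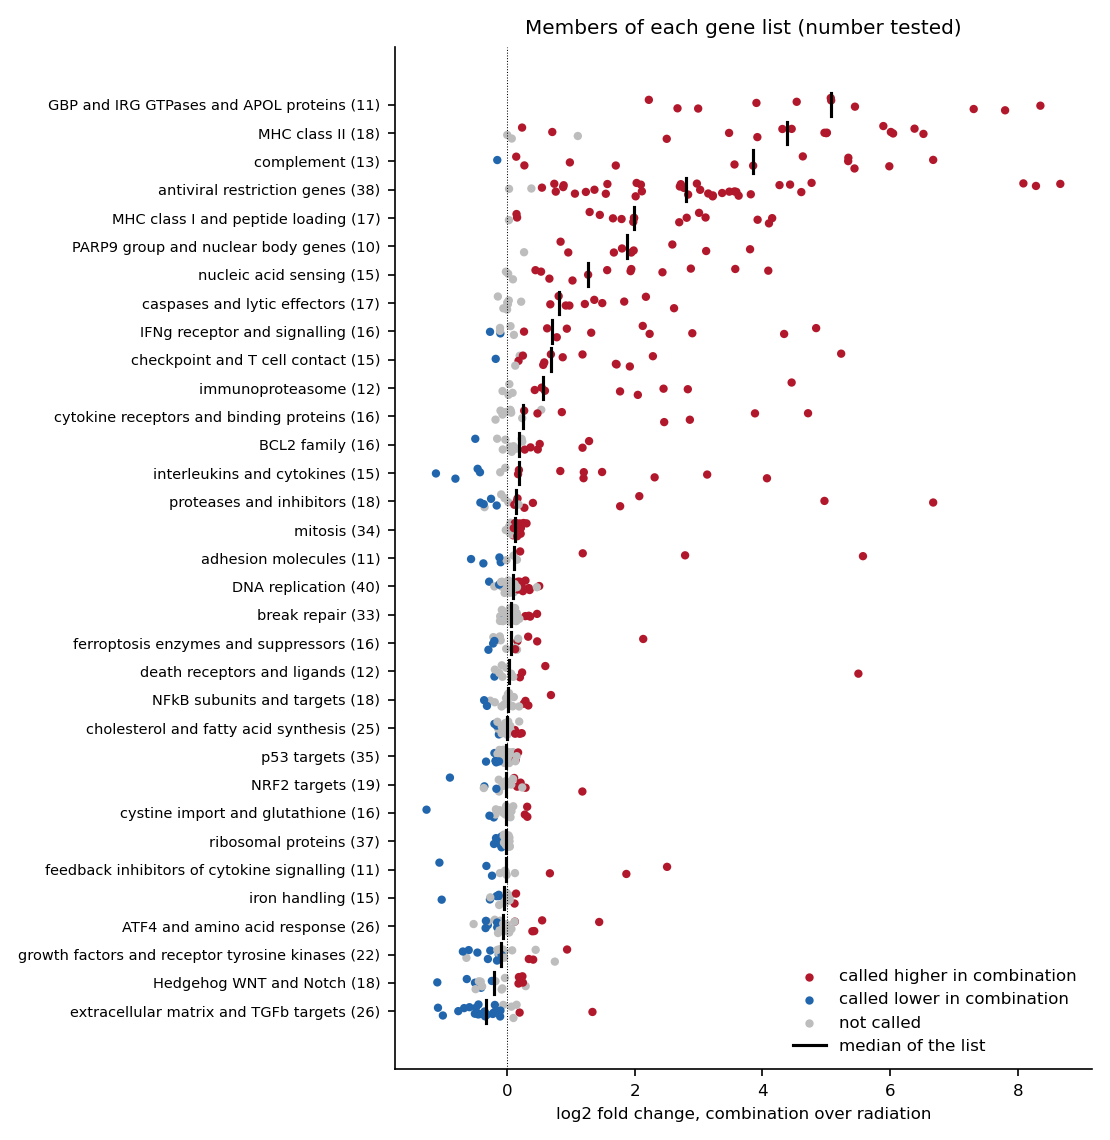
Log2 fold change of combination over radiation for each tested member of the lists with at least 10 tested genes, ordered by the list's median (black bar), with members called higher in red, called lower in blue and not called in grey. The GBP and APOL list has the highest median, 5.07, and the matrix list the lowest, -0.32.

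Whether IFNγ acted differently in irradiated cells was tested by subtracting the log2 effect without radiation (IFNγ over untreated) from that with radiation (combination over radiation). This difference was called above 0 for 168 genes (1.38%) and below 0 for 121 (0.995%), together 2.38% of the genes tested, and without radiation 2 for 91 and 70. With library totals it was 215 and 95, so 69.4% of the called differences were above 0, against 58.1%. Most genes were thus not shown to respond differently. Of the 299 genes raised at least 2-fold, 280 were also called higher, 0 lower and 19 not called in IFNγ against untreated cells. Their difference was called below 0 for 25 and above 0 for 2, with a median of -0.14 against -0.0015 over all genes tested (18 and 1, median -0.11, without radiation 2). Of the 42 lowered genes, 24 were also called lower and 18 were not called in unirradiated cells. Over all 12160 genes tested, 1829 were called higher and 1715 lower in IFNγ against untreated cells.

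Some raised genes had a smaller log2 fold change after radiation, which need not mean a smaller rise in CPM. UBE2L6 changed by 3.22 ± 0.06 in irradiated and 4.13 ± 0.07 in unirradiated cells, a difference of -0.91 ± 0.09 (edgeR adjusted p = 4.4e-10). TRIM22, an antiviral ubiquitin ligase, had mean levels of 374 CPM in combination, 87.4 CPM in radiation, 200 CPM in IFNγ-treated and 22.8 CPM in untreated cells, with a difference of -1.03 ± 0.09. Its level without IFNγ was higher in irradiated cells, and its rise in CPM was larger there. APOL3 (-1.52 ± 0.33), TNFRSF14, a ligand of the receptor BTLA on T cells (-1.37 ± 0.19), IRF9 (-0.89 ± 0.13), PSMB8 (-0.55 ± 0.08) and B2M (-0.36 ± 0.04) also differed below 0, each called in every alternative fit.

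SLC7A11 was lowered more in irradiated cells as a ratio but not in CPM. Its level without IFNγ was lower there. The mean level of SLC7A11 was 14.1 ± 1.41 CPM in combination cells against 33.6 ± 2.03 CPM in radiation cells, and 78.3 ± 6.0 CPM in IFNγ-treated cells against 108 ± 9.78 CPM in untreated cells (SD, n = 3 each). The log2 effect of IFNγ was -1.26 ± 0.10 in irradiated and -0.46 ± 0.06 in unirradiated cells, and the difference was -0.79 ± 0.12 (edgeR adjusted p = 2.3e-05, and 0.00030 without radiation 2). TFRC had a difference of -0.25 ± 0.04. Above 0 were PCNA (0.34 ± 0.05), GDF15 (0.32 ± 0.06) and CDKN1A (0.25 ± 0.05). CDKN1A is an example of a difference without a called change: in irradiated cells its effect was -0.06, while in unirradiated cells IFNγ lowered it by 0.31 on the log2 scale.

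**Figure D5:**
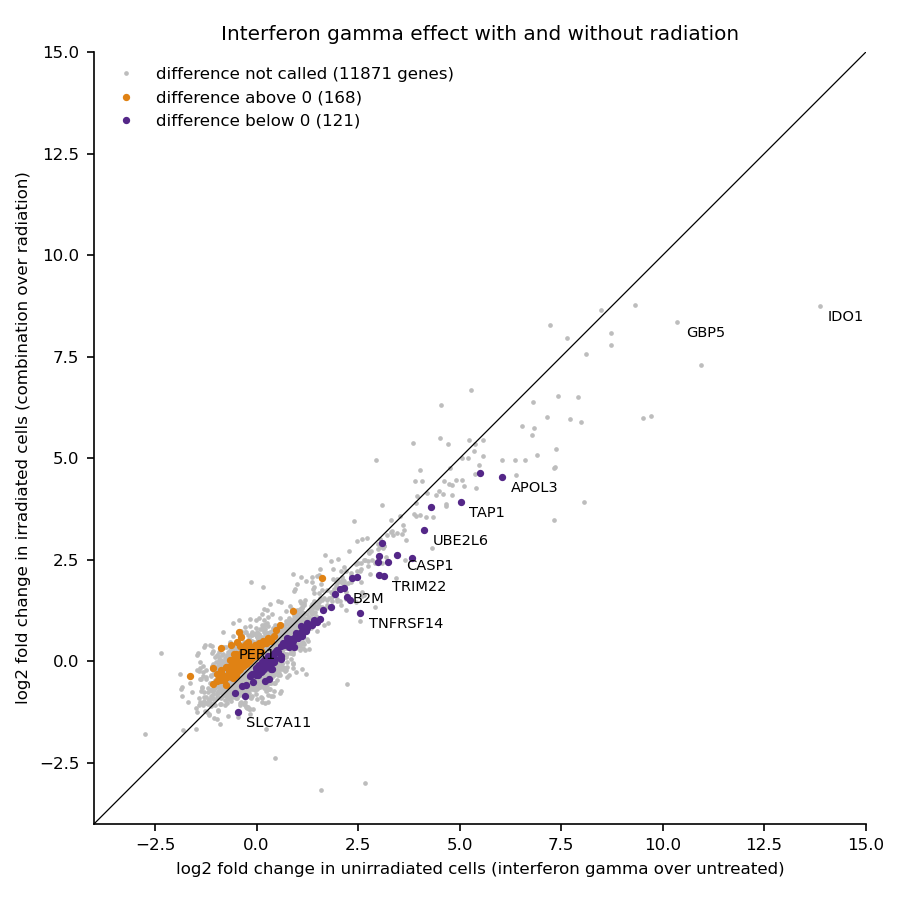
Log2 fold change of IFNγ in irradiated cells (vertical axis, combination over radiation) against that in unirradiated cells (horizontal axis, IFNγ over untreated), 1 point per gene tested, with the line of equal effects. The 168 genes with a difference above 0 (orange) lie above the line and the 121 below 0 (purple) lie under it, and fitted values are not bounds where a group has hardly any counts, as for IDO1.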

How the data were processed

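The authors deposited a table of raw read counts per gene, 1 column per library, for all 12 libraries. The submitters' processing notes name TopHat2 2.0.13, Cuffdiff 2.2.1, Cufflinks and FastQC 0.11.3 with hg19 (GRCh37). The counting tool, annotation and strand setting were not given in sources used here, so reads of overlapping or antisense genes cannot be told apart. The labels' protocol names a ribosomal RNA removal kit and the design text an mRNA protocol.

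Libraries were grouped by their treatment labels. All 12 entered 1 fit in edgeR 4.0.16 (R 4.3.3): filterByExpr, TMM scaling and a robust quasi-likelihood test, with Benjamini-Hochberg adjustment over the 12160 genes tested and a threshold of 0.05. Genes left out held 0.0678% of counts, the median count was 320 and the common biological coefficient of variation was 2.71%. CPM are counts scaled to a TMM-adjusted library total of 1e+06. The script was tested on simulated data. Alternatives were DESeq2 1.42.0, other scalings, no filter, only the 6 libraries, a replicate block and each library left out. The labels do not say whether replicate numbers pair the libraries, so the main fit had no replicate block. Few-count genes are given by ratios with exact intervals.

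Named genes were the 10 called genes with the largest change in each direction among non-overlapping genes averaging 2 or more in log2 CPM, the leading called members of each list, key genes, and genes nearly at 0 in radiation cells. Genes with the largest called differences of the IFNγ effect in each direction were also named, if they averaged 2 or more in log2 CPM over the 12 libraries. Members named because they failed the test were chosen after their values were seen. The members and lists were chosen with earlier results of these data known. Some items are not reported here, though counts over genes and lists include them.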

Additional observations from a re-analysis of the deposited data

Results flagged for a closer look

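For 38 named genes the effect of IFNγ differed between irradiated and unirradiated cells by a test of the difference itself (edgeR's quasi-likelihood test, adjusted p under 0.05). Over all genes tested the share called was 2.38%. Some of the 38 were named because this difference was called and large, so the number 38 is not a result about named genes. Values in parentheses are the log2 effect in irradiated cells minus that in unirradiated cells, from 3 libraries a group. The direction held in all alternatives for each gene, and 25 were called without radiation 2.

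In every alternative that gave an adjusted p, 20 genes were called. Below 0 were APOL3 (-1.52), B2M (-0.36), C1S (-0.87), CASP1 (-0.85), CCND1 (-0.22), DTX3L (-0.42), IRF9 (-0.89), PSMB8 (-0.55), PSME2 (-0.30), SLC7A11 (-0.79), STAT3 (-0.48), TFRC (-0.25), TNFRSF14 (-1.37), TRIM22 (-1.03), UBE2L6 (-0.91) and VEGFC (-0.30). Above 0 were CDKN1A (0.25), GDF15 (0.32), PCNA (0.34) and PER1 (1.05).

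The other calls were lost under at least 1 alternative, named here by the library left out or the setting, with the highest edgeR or DESeq2 adjusted p among the alternatives. ASNS (-0.35) lost its call without combination 3 or radiation 1 or 3 and in DESeq2 (highest adjusted p 0.069). FAAP24 (0.98) was no longer called without combination 3, radiation 2 or 3, IFNγ 1 or 2 or untreated 1 or 3 (highest adjusted p 0.11). The call of H2AFX (0.28) was lost without combination 2 or 3, radiation 1 or 2, IFNγ 2 or 3 or untreated 1 and in DESeq2 (highest adjusted p 0.081). HHEX (0.94) was no longer called without combination 1 or 2, radiation 1, 2 or 3, IFNγ 1 or 2 or untreated 1 or 3 (highest adjusted p 0.11). ISM1 (0.81) lost its call without combination 2 or 3, radiation 1 or 3, IFNγ 1 or 2 or untreated 1 or 3 (highest adjusted p 0.1). MBOAT2 (0.24) was no longer called without combination 2 or 3, radiation 1, 2 or 3, IFNγ 1, 2 or 3 or untreated 2 or 3 and in DESeq2 (highest adjusted p 0.16). The call of PARP9 (-0.48) was lost without untreated 1 (highest adjusted p 0.11). PLAU (0.16) was no longer called without combination 1 or 2 or radiation 2 or 3 (highest adjusted p 0.078). RPL7 (-0.15) lost its call without combination 2 or 3, radiation 1, 2 or 3, IFNγ 1, 2 or 3 or untreated 2 and in DESeq2 and with library totals (highest adjusted p 0.16). SCN9A (-1.27) was no longer called without combination 1 or 2, radiation 1 or 2, IFNγ 1 or untreated 1 or 3 (highest adjusted p 0.18). The call of SDHA (0.20) was lost without combination 1 or 3, radiation 1 or 2 or IFNγ 2 or 3 and in DESeq2 (highest adjusted p 0.14). SEMA3B (0.89) was no longer called without combination 2 or 3, radiation 1 or 2, IFNγ 1, 2 or 3 or untreated 1 or 3 (highest adjusted p 0.14). SOCS3 (-0.46) lost its call without combination 1 or 2, radiation 1 or 3, IFNγ 1 or untreated 2 or 3 and in DESeq2 (highest adjusted p 0.13). TAP1 (-1.10) was no longer called without combination 2, radiation 1, 2 or 3 or untreated 1, 2 or 3 and with a replicate block (highest adjusted p 0.11). The call of TLR3 (-0.80) was lost without radiation 1 or 2, IFNγ 1 or untreated 3 (highest adjusted p 0.1). TNC (-0.49) was no longer called without combination 2, IFNγ 3 or untreated 1 or 3 (highest adjusted p 0.19). TOP2A (0.16) lost its call without radiation 1 or 2 (highest adjusted p 0.088). WBSCR27 (0.74) was no longer called without combination 3, radiation 1 or 2, IFNγ 2 or untreated 2 (highest adjusted p 0.17). No cause of these differences was tested.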

How the results depend on the processing

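No named gene that was called turned its direction under the alternatives run, but library totals turned the balance of calls over all genes to more lower than higher, and likewise for the NRF2 target and cholesterol synthesis lists. Leaving out each library in turn gave 1500 to 1645 genes higher and 1169 to 1360 lower in combination than in radiation cells, and 287 to 311 higher and 36 to 48 lower at 2-fold or more. With library totals in place of TMM, 2278 genes were lower. At 2-fold or more, 26 genes were lower in DESeq2 and 78 without a filter on low counts, against 42. The difference of the IFNγ effect was called above 0 for 91 to 194 genes and below 0 for 70 to 138 when a library was left out, and for 84 and 75 in DESeq2, against 168 and 121. A replicate block gave 1748 higher and 1514 lower, and 159 and 117 for the difference; libraries with the same number did not deviate together (r of -0.038, -0.0040 and -0.038). Folds of genes with few counts in radiation cells are limited by depth, and the cause of the other shifts was not tested.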
